A study of Homo sapiens with 24 samples.

Results

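The secreted and membrane-bound proteases that open the extracellular matrix, with the receptor and inhibitors that govern them, were followed through HepaRG reprogramming in 10 genes: MMP1, MMP3, MMP7, MMP10, MMP14, PLAU, PLAUR, TIMP1, TIMP2 and TIMP3. They are 10 of the 11963 genes that the array annotation names alone on a probe set, and were taken by symbol. HepaRG cells are an established human liver line with progenitor properties, and in culture with DMSO they take on the features of hepatocytes. Cultures had grown for 2 weeks and then for 2 weeks in medium with DMSO, after which the hepatocyte-like cells were lifted by mild trypsin treatment and reseeded sparsely. RNA was sampled at 0 h, 1 h, 4 h, 8 h, 12 h, 16 h, 24 h and 48 h, with 3 arrays at each time, so all 8 groups share the cell line, the DMSO culture and the detachment, and differ in time after replating. The labels describe no culture that was left attached, so detachment, sparse seeding and time in culture cannot be told apart. They also do not say whether replicates were separate cultures, so every p-value measures the spread between these arrays, which may be technical.

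Matrix metalloproteases are zinc enzymes made as inactive precursors and held in check by tissue inhibitors of metalloproteases (TIMPs). Stromelysins such as MMP3 and MMP10 cut proteoglycans, laminin and fibronectin and can activate other precursor proteases, and MMP1 cuts fibrillar collagen. MMP7, or matrilysin, is a small epithelial protease, and MMP14 is anchored in the membrane, where it activates the MMP2 precursor with the help of TIMP2. Urokinase (PLAU) turns plasminogen into plasmin at the cell surface when bound to its receptor, PLAUR. In liver this machinery is known for its part in regeneration, fibrosis and the movement of cells.

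The array carried 19 probe sets for the 10 genes, of 22215 that are not controls, and 17 passed the filter on dim signals (above the array's own 40th percentile on at least 3 of 24 arrays). The others, 1 for MMP14 and 1 for PLAU, were at or under that level on every array and were not tested. Every gene kept at least 1 tested probe set, and the brightest of these on average stands for the gene below unless another is named. Values are MAS5 signals, and changes are log2 differences of (signal + 18) with their standard error (SE), a scale that shrinks changes between dim signals. Changes were called at an adjusted p under 0.05 with at least a 2-fold difference.

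Control ratios and median signals set some 0 h arrays apart. The ACTB controls, whose ratio of 3' to 5' signal is higher for degraded RNA, gave ratios of 1.02 to 2.12 on the later arrays, against 2.03, 6.91 and 2.56 at 0 h. The same ratio of GAPDH was 0.896 to 1.49 on the later arrays, against 1.11, 1.92 and 1.10 at 0 h, so by this control replicate 2 alone stood apart. Without 0 h replicate 2, which had the ratio of 6.91, 39 of 43 calls in the 10 genes against 0 h held, 2 were lost (PLAUR 214866_at at 4 h and at 48 h) and the others, on TIMP3 201147_s_at, were no longer tested. The arrays' median signals were 99.8 to 138.0 at the later times, against 129.9 to 141.9 at 0 h, and the median log2 change of all tested probe sets lay between -0.16 at 16 h and -0.07 at 1 h. Summed hepatocyte marker signals (7 of 8 markers tested) lay between 92990 and 100709 at 48 h, against 303929 and 330440 at 0 h, so the labelled cell type's markers were bright at the start. Their part in the changes below was not tested. In bulk RNA, fewer cells of a type and less RNA per cell cannot be told apart.

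**Figure D1:**
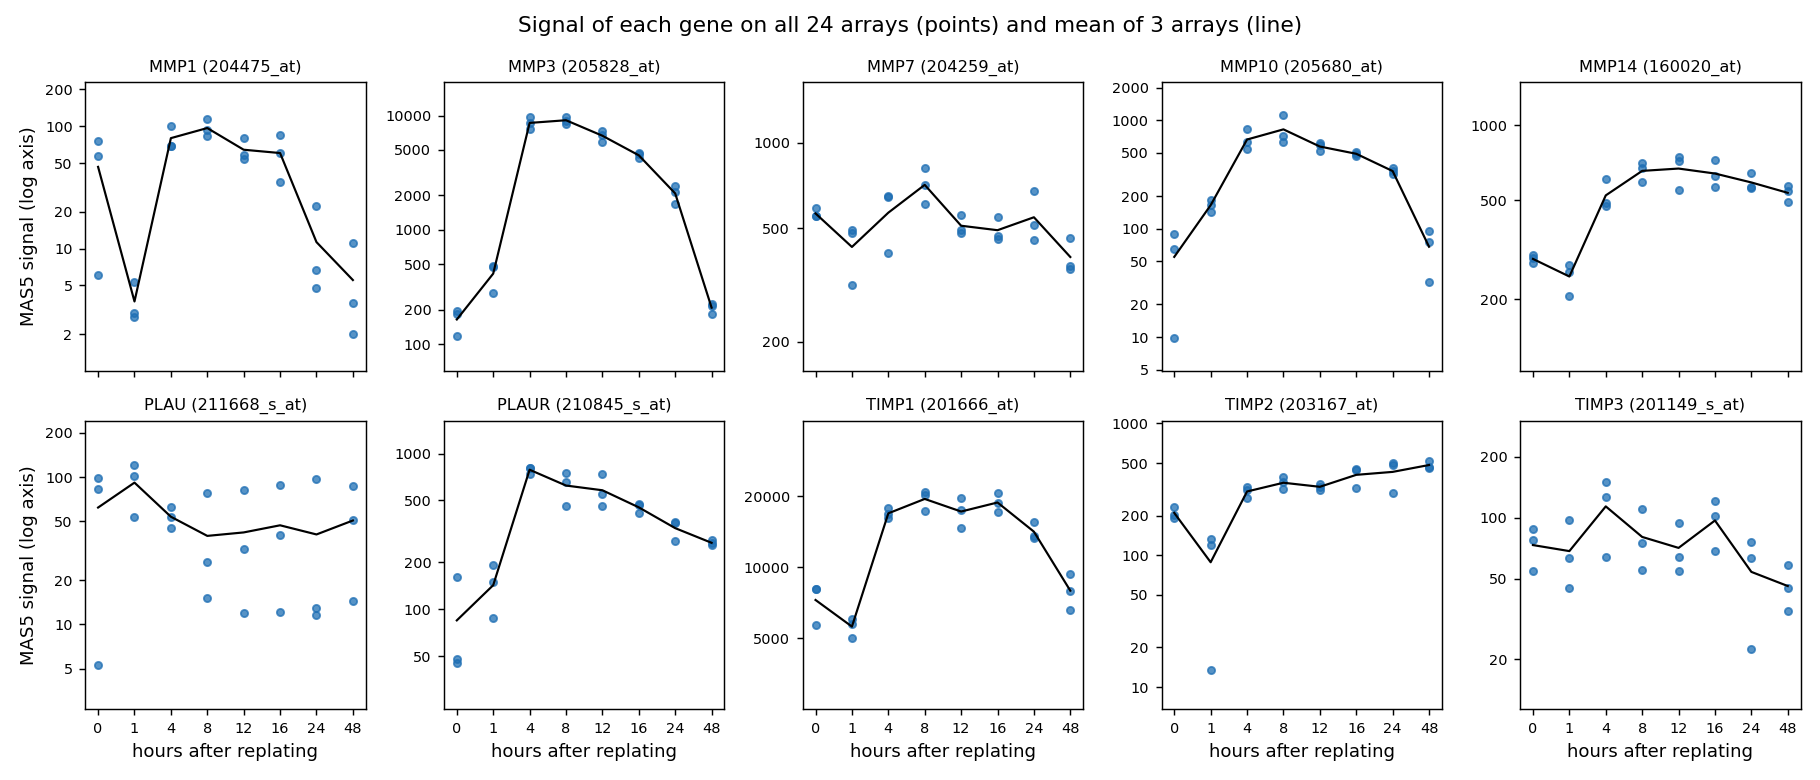
MAS5 signal (log axis) of each of the 10 genes on all 24 arrays against hours after replating, with points for arrays and a line through the mean of 3 arrays. MMP3 and MMP10 stand high from 4 h to 24 h and are back near their 0 h signals at 48 h. PLAUR, MMP14 and TIMP2 stay above 0 h at 48 h, and PLAU and TIMP3 show no ordered course.

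Over the course, 8 of the 10 genes passed the moderated F-test of limma, against 58.0% of all genes, and PLAU and TIMP3 did not. By probe set, 11 of 17 passed, against 53.6% of all tested. Against 0 h, 2 member probe sets were called higher and 1 lower at 1 h, where 1.98% and 0.549% of the 17122 tested probe sets were. At 4 h, 6 were higher and 0 lower, against 7.13% higher and 6.38% lower over all. At 8 h, 8 were higher and 1 lower (8.02% and 9.31% over all), and at 12 h 8 were higher and 0 lower (8.46% and 9.48%). At 16 h, 7 were higher and 0 lower (8.52% and 11.1%), at 24 h 5 and 0 (9.26% and 10.8%), and at 48 h 4 and 1 (9.23% and 11.0%). By gene, MMP3, MMP10, PLAUR and TIMP1 were higher at 4 h, MMP14 joined them from 8 h to 16 h, and PLAUR and TIMP2 were called higher at 48 h. MMP14 at 48 h was under 2-fold, and was called with each array centred on its median (1.10), while TIMP2 lost its call with the larger pseudocount (0.98). Probe sets of a gene share their target, so 3 of the higher calls at each time from 4 h on are PLAUR's. With each array centred on its median, the series as a whole had 2463 probe sets higher and 1228 lower at 48 h, against 1581 and 1883 without centring, and in the 10 genes no called direction turned under any scaling.

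The steps between neighbouring times place most of the rise between 1 h and 4 h. In that step 9 of 17 probe sets were called higher and 0 lower, where 5.75% and 4.02% of all tested probe sets were. They belonged to MMP1, MMP3, MMP10, MMP14, PLAUR, TIMP1 and TIMP2. From 4 h to 8 h, 2 MMP14 probe sets were called higher (0.993% over all; 1.56% were lower). limma called 0 of the 17 from 8 h to 12 h (0.234% higher and 0.128% lower over all) and 0 from 12 h to 16 h (0.0818% and 0.123%), with 2 at an unadjusted p under 0.05 in each. MMP3 was the 1 gene lower at 24 h than at 16 h (0.479% of all probe sets were lower and 0.672% higher), and MMP3 and MMP10 were lower at 48 h than at 24 h (0.876% lower and 0.327% higher over all).

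**Figure D2:**
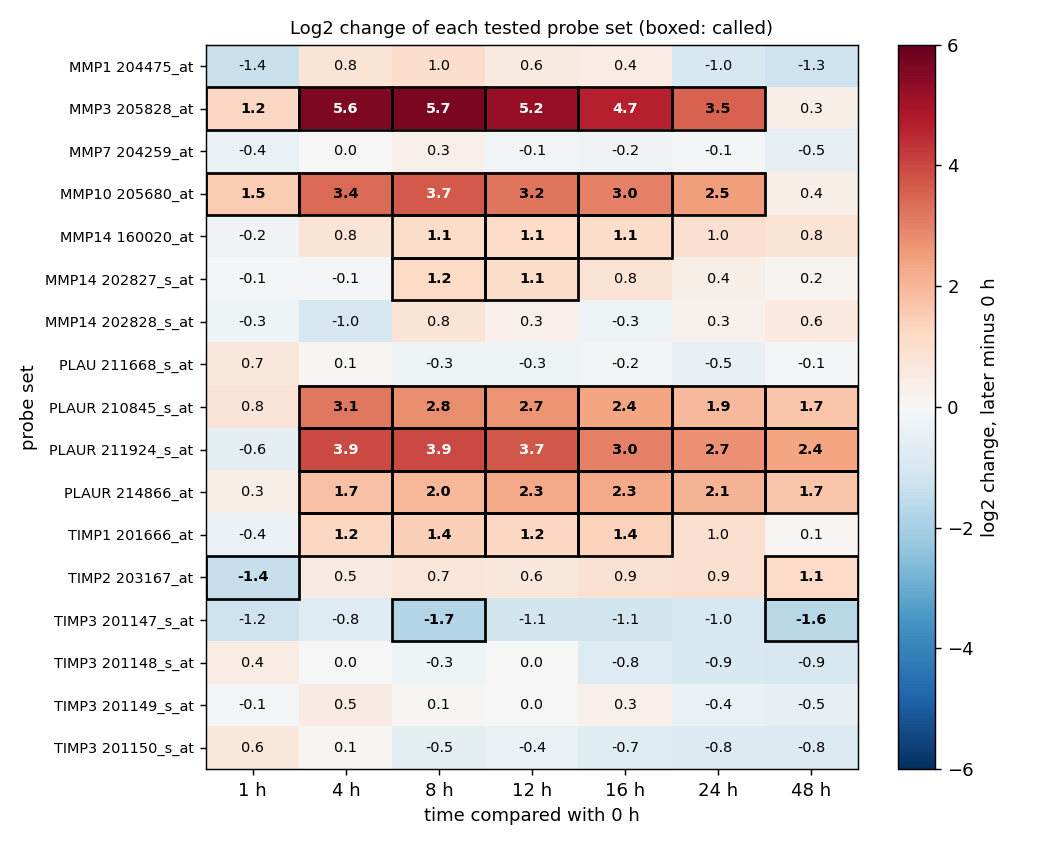
Log2 change from 0 h (colour and printed value) of the 17 tested probe sets of the 10 genes, in rows, at the 7 later times, in columns, with calls boxed. The 3 PLAUR probe sets are called at every time from 4 h on, while MMP7, PLAU, MMP1 and 3 of the 4 TIMP3 probe sets are called at none with all arrays.

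MMP3, stromelysin-1, showed the widest change of the 10 genes on the log2 scale. Its signal was 483, 477 and 282 at 1 h, 8633, 9676 and 7556 at 4 h and 9761, 8501 and 9037 at 8 h, against 183, 117 and 194 at 0 h. It was still 5867 to 7330 at 12 h, 4229 to 4658 at 16 h and 1683 to 2420 at 24 h, and 227, 215 and 185 at 48 h. Every array from 1 h to 24 h lay above every 0 h array, and the 48 h arrays overlapped those of 0 h. The signal was thus 2.52-fold that of 0 h at 1 h, 52.4-fold at 4 h, 55.3-fold at 8 h and 12.7-fold at 24 h. On the log2 scale MMP3 was higher by 1.23 ± 0.18 at 1 h (SE, adjusted p = 7.5e-06), by 5.67 ± 0.18 at 8 h (adjusted p = 5e-22) and by 0.34 ± 0.18 at 48 h (adjusted p = 0.14), which was not called. Ordered by level from high to low, the times ran 8 h, 4 h, 12 h, 16 h, 24 h, 1 h, 48 h and 0 h. Neighbours among the first 4 were not told apart, nor were 48 h and 0 h, and the other neighbours differed. The fall from 24 h to 48 h was a log2 change of -3.20 ± 0.18 (SE, adjusted p = 1.9e-14). The smaller fall from 16 h to 24 h, -1.12 ± 0.18, dropped under 2-fold (-0.97) without 24 h replicate 3.

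MMP10, stromelysin-2, is a close relative of MMP3 and followed a like course with a smaller swing. It read 144, 165 and 186 at 1 h, 830, 627 and 539 at 4 h and 1121, 636 and 719 at 8 h, against 89.7, 65.4 and 9.77 at 0 h. Later it read 516 to 614 at 12 h, 469 to 513 at 16 h, 363, 321 and 338 at 24 h and 32.3, 76.1 and 96.2 at 48 h. From 1 h to 24 h all arrays exceeded the 0 h arrays, whose own values were wide apart, and at 48 h the groups overlapped. Its log2 change was 3.42 ± 0.33 at 4 h (SE, adjusted p = 9.5e-10), 3.70 ± 0.33 at 8 h (adjusted p = 1.3e-10) and 2.51 ± 0.33 at 24 h (adjusted p = 2.3e-07). At 48 h it was 0.37 ± 0.33 (adjusted p = 0.42). The early call at 1 h, 1.53 ± 0.33 (adjusted p = 0.0034), rested on 0 h replicate 3, the 0 h array at 9.77, since without that array it was 0.94 with an adjusted p of 0.064. In the order of levels, neighbours among 4 h to 24 h were not told apart, 24 h differed from 1 h (adjusted p = 0.021), and MMP10 fell between 24 h and 48 h by a log2 change of -2.14 ± 0.33 (adjusted p = 6.2e-05).

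MMP7, matrilysin, stayed within a narrow range. It read 483, 316 and 492 at 1 h, 649, 410 and 643 at 4 h, 815, 711 and 607 at 8 h and 359, 368 and 462 at 48 h, against 552, 551 and 589 at 0 h. The 8 h arrays lay above all 0 h arrays, those of 1 h, 16 h and 48 h lay below all 0 h arrays, and at 4 h the groups overlapped. No comparison with 0 h was called, the widest being -0.50 ± 0.20 at 48 h (SE, adjusted p = 0.054). MMP7 passed the F-test (adjusted p = 0.026), and 48 h differed from 8 h by -0.81 ± 0.20 (adjusted p = 0.0029), under 2-fold.

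MMP10 and MMP7 lie in the same group of protease genes on chromosome 11. Their promoters match the same 2 short patterns at nearly the same place, which is why both are shown. A loose pattern of the AP-1 site (TGANTCA, with any base at N, read on both strands) ended 61 bases upstream of the start in both. A TATA box (TATAAA, on the gene's strand) began 31 bases upstream in MMP10 and 30 bases upstream in MMP7. Of 35116 RefSeq windows of the 250 bases upstream of a gene start, 6.57% held TGANTCA and 6.8% held TATAAA. The stricter TGAGTCA, which is contained in the first pattern, was in 4.2%. The sequences are from RefSeq, build GRCh38.p14, minus strand, written 5′ to 3′ with the TGANTCA match in capitals, for MMP10 at chr11:102780629-102780878 and for MMP7 at chr11:102530748-102530997.
MMP10: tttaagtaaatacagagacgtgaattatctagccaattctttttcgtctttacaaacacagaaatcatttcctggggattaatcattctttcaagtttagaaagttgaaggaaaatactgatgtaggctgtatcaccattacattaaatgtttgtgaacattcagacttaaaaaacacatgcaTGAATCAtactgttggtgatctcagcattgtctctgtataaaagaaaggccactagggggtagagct
MMP7: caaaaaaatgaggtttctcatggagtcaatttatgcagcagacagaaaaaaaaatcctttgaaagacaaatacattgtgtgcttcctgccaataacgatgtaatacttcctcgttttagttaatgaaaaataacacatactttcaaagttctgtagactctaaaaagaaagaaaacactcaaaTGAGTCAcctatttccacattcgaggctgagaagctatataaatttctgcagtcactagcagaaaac
The MMP10 copy reads TGAATCA and the MMP7 copy TGAGTCA. The G+C content was 34.4% in MMP10 and 33.6% in MMP7. MMP10 was called higher from 1 h to 24 h and MMP7 at no time, and whether the windows bear on this was not tested. RefSeq windows were matched for 7 of the 10 genes (8 windows), with none for MMP1, MMP3 or TIMP2. Those of MMP14, PLAU (2 windows), TIMP1 and TIMP3 held none of the 3 patterns.

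MMP1, interstitial collagenase, sits between MMP10 and MMP3 on chromosome 11 and was dim throughout. It read 5.36, 2.75 and 2.97 at 1 h, 101, 69.5 and 69.3 at 4 h and 114, 82.8 and 93.0 at 8 h, against 57.5, 76.2 and 6.02 at 0 h. At 24 h it read 22.5, 6.63 and 4.78 and at 48 h 3.57, 11.0 and 2.00. The 0 h arrays were far apart and overlapped every later time but 8 h and 1 h, and against 0 h nothing was called (8 h, 1.04 ± 0.52, SE, adjusted p = 0.13; 48 h, -1.26 ± 0.52, adjusted p = 0.059). The 0 h array at 6.02, replicate 3, decided this: without it MMP1 was called lower at 1 h (-1.96), 24 h (-1.57) and 48 h (-1.86, adjusted p = 0.007). At 48 h it was also called with no pseudocount (-2.80) and with no filter (-1.26, adjusted p = 0.038). Between later times MMP1 moved: 4 h was above 1 h by 2.16 ± 0.52 (adjusted p = 0.0023), and 48 h was below 8 h by -2.30 ± 0.52 (adjusted p = 0.0011). It passed the filter on 7 arrays, all from 4 h to 16 h, so these changes are partly between a signal and a level under the filter.

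MMP14, the membrane-type protease, was about 2-fold higher from 8 h to 16 h. Probe set 160020_at read 486, 608 and 474 at 4 h, 672, 593 and 703 at 8 h, 715, 551 and 743 at 12 h and 494, 543 and 569 at 48 h, against 301, 292 and 279 at 0 h. From 4 h on every array was above the 0 h arrays, while the 1 h arrays, at 207, 259 and 276, were below them. The log2 change was 1.12 ± 0.18 at 8 h (SE, adjusted p = 5.6e-06), 1.15 ± 0.18 at 12 h (adjusted p = 3.6e-06) and 1.09 ± 0.18 at 16 h (adjusted p = 7.9e-06). At 4 h (0.80), 24 h (0.97) and 48 h (0.84, adjusted p = 0.00027) it passed the p threshold and not the 2-fold one. In the order of levels, neighbours among the times from 4 h on were not told apart, and the lowest of them, 4 h, differed from 0 h. A dimmer probe set, 202827_s_at, was called at 8 h (1.18 ± 0.36, adjusted p = 0.011) and 12 h but not at 16 h, and 202828_s_at against 0 h at no time. Without 4 h replicate 1, 202828_s_at was called lower at 4 h than at 0 h (-1.88, adjusted p = 0.011) and than at 1 h (-1.62, adjusted p = 0.036). Over the 24 arrays 160020_at correlated with 202827_s_at at r = 0.65 and with 202828_s_at at r = 0.09, so the course rests on 160020_at. Its call from 1 h to 4 h (1.03) fell under 2-fold without 1 h replicate 1 or 4 h replicate 2 (0.92 in each). Its call at 16 h fell just under 2-fold without 16 h replicate 1 (0.99), and those of 202827_s_at missed the p threshold without 8 h replicate 3 (1.03, adjusted p = 0.057, at 8 h) and without 0 h replicate 1 or 12 h replicate 1 (1.01 and 0.95 at 12 h). The calls of both dimmer probe sets between 4 h and 8 h (1.85 ± 0.57 for 202828_s_at, adjusted p = 0.039) were both lost without 4 h replicate 3 (adjusted p = 0.24 for 202828_s_at and 0.13 for 202827_s_at), 8 h replicate 1 (0.053 and 0.061) or 8 h replicate 3 (0.11 and 0.093).

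PLAUR, the urokinase receptor, rose at 4 h and was still up at 48 h on all 3 of its probe sets. Probe set 210845_s_at read 191, 149 and 88.3 at 1 h, 810, 742 and 811 at 4 h, 659, 751 and 460 at 8 h and 277, 265 and 260 at 48 h, against 161, 47.8 and 45.4 at 0 h. Every array from 4 h on lay above all 0 h arrays, and those at 1 h overlapped them. The log2 change was 3.15 ± 0.29 at 4 h (SE, adjusted p = 2.8e-10), 1.94 ± 0.29 at 24 h (adjusted p = 2e-06) and 1.65 ± 0.29 at 48 h (adjusted p = 2.6e-05). Probe set 211924_s_at read 630, 706 and 636 at 4 h and 236, 223 and 166 at 48 h, against 5.80, 29.6 and 56.1 at 0 h, with log2 changes of 3.95 ± 0.29 at 4 h and 2.36 ± 0.29 at 48 h (adjusted p = 4.9e-08). The third, 214866_at, was higher by 1.74 ± 0.42 at 4 h (adjusted p = 0.002) and by 2.26 ± 0.42 at 12 h; without 0 h replicate 2, where it read 8.02, the 4 h change was 0.92 and the 48 h change 0.86, and neither was called. On 211924_s_at PLAUR came part of the way down from its early high, 48 h being lower than 4 h by a log2 change of -1.59 ± 0.29 (adjusted p = 5.1e-05). Probe set 214866_at had no such early high, averaging 258 ± 59.2 at 4 h, 375 ± 57.0 at 12 h and 253 ± 83.9 at 48 h (SD, n = 3). On 210845_s_at neighbouring times from 4 h to 48 h could not be told apart. Over the whole span its mean came down, to 267 ± 8.95 at 48 h, against 788 ± 39.4 at 4 h (SD, n = 3), with no overlap. The 3 probe sets correlated with each other at r = 0.75 to 0.86 over the 24 arrays, which share their times. At 1 h they did not go one way (0.77, -0.59 and 0.34, none called). Without 0 h replicate 1, whose 210845_s_at signal was 161, that probe set was called higher at 1 h (1.26) and 211924_s_at lower (-1.03).

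The PLAUR promoter holds TGAGTCA, as that of MMP7 does, farther from the start, and is shown for this match. The match ran from 186 to 180 bases upstream, in a window with 63.2% G+C and no TATAAA. The sequence is from RefSeq, build GRCh38.p14, minus strand, 5′ to 3′, chr19:43670170-43670419, with the AP-1 letters in capitals.
PLAUR: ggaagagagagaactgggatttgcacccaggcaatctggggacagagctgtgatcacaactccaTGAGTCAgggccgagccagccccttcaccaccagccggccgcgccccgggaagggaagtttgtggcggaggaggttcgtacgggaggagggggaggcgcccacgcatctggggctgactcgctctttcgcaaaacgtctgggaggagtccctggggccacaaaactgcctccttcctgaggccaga
A match of letters is a description of the window and does not show that a factor bound there.

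PLAU, urokinase itself, did not follow its receptor. Its tested probe set read 102, 53.2 and 120 at 1 h, 53.9, 44.9 and 62.7 at 4 h, 26.5, 15.2 and 78.0 at 8 h and 87.1, 50.8 and 14.4 at 48 h, against 98.6, 82.4 and 5.30 at 0 h. Replicates spread over several-fold at most times and the groups overlapped at each time. Its log2 change from 0 h ranged from -0.45 ± 0.65 at 24 h to 0.70 ± 0.65 at 1 h (SE, adjusted p of 0.64 or more), so changes of about 2-fold were not detectable in this probe set.

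TIMP1, a secreted inhibitor of most soluble metalloproteases, rose while MMP3 and MMP10 were high. It read 6058, 5012 and 5769 at 1 h, 16184, 16758 and 17768 at 4 h, 17267, 20294 and 20773 at 8 h and 6604, 7920 and 9356 at 48 h, against 8055, 5677 and 8083 at 0 h. From 4 h to 24 h every array was above all 0 h arrays, and at 1 h and 48 h the groups overlapped. The mean was 19444 ± 1901 at 8 h, against 7272 ± 1381 at 0 h (SD, n = 3), which is 1.43 ± 0.15 on the log2 scale (SE, adjusted p = 1.7e-09). The change was 1.23 ± 0.15 at 4 h (adjusted p = 4.6e-08), 0.97 ± 0.15 at 24 h (adjusted p = 1.9e-06, just under 2-fold; 1.19 and called with each array centred on its median) and 0.13 ± 0.15 at 48 h (adjusted p = 0.51). At 48 h TIMP1 was lower than at 8 h by a log2 change of -1.30 ± 0.15 (adjusted p = 2e-08). In the order of levels the times from 4 h to 24 h were not told apart from their neighbours, and 24 h differed from 48 h.

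TIMP2, the inhibitor that also helps MMP14 activate the MMP2 precursor, was lower at 1 h and higher at 48 h. It read 13.5, 119 and 133 at 1 h, 313, 327 and 274 at 4 h, 389, 319 and 357 at 8 h and 460, 523 and 470 at 48 h, against 192, 202 and 234 at 0 h. All 1 h arrays were below, and all arrays from 4 h on above, those of 0 h. At 1 h it was lower by a log2 change of -1.39 ± 0.34 (SE, adjusted p = 0.011), a call that rests on the 13.5 of replicate 1, since without it the change was -0.66 (adjusted p = 0.17). At 48 h it was higher by 1.14 ± 0.34 (adjusted p = 0.0083), the time at which its mean was highest (484 ± 33.9, against 210 ± 21.7 at 0 h, SD, n = 3). At 16 h (0.89 ± 0.34) and 24 h (0.94 ± 0.34) it passed the p threshold but not 2-fold. TIMP2 and MMP14 were thus higher than at 0 h with an adjusted p under 0.05 at 48 h, when MMP3, MMP10 and TIMP1 were not.

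TIMP3, an inhibitor that binds to the matrix, was dim and its probe sets did not move together (r between -0.06 and 0.38 over 24 arrays). Probe set 201149_s_at read 127, 64.0 and 151 at 4 h and 34.7, 45.1 and 58.5 at 48 h, against 54.7, 88.2 and 77.3 at 0 h, with overlap at both times and no call. Probe set 201147_s_at read 16.0, 5.95 and 19.3 at 8 h and 2.43, 42.1 and 11.9 at 48 h, against 24.9, 151 and 138 at 0 h. It was called lower at 8 h (-1.74 ± 0.62, SE, adjusted p = 0.03) and at 48 h (-1.65 ± 0.62, adjusted p = 0.038), though at 48 h the groups overlapped. That probe set passed the filter on 3 arrays only and each call was lost under 6 alternatives, among them leaving out 8 h replicate 1 (-1.80, adjusted p = 0.054) or 2 (-1.55) and 48 h replicate 1 (-1.30) or 3 (-1.57).

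**Figure D3:**
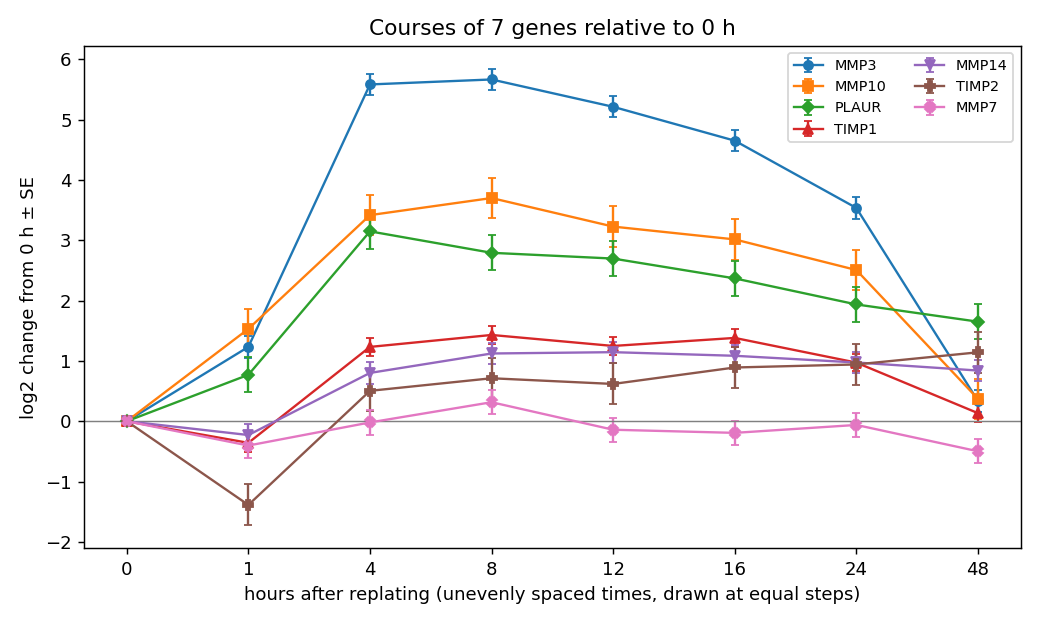
Log2 change from 0 h (y axis, points with SE bars) of 7 of the genes at each time (x axis, drawn at equal steps). MMP3 and MMP10 return to within 0.4 of 0 h at 48 h, PLAUR declines from 3.15 at 4 h to 1.65 at 48 h, MMP14 stays near 1 from 8 h and TIMP2 is highest at 48 h.

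The courses of the 10 genes were also compared with each other and with all other genes as a description, over 24 arrays that share 8 times. Among the members, MMP3 correlated with MMP10 at r = 0.94, with TIMP1 at 0.91 and with PLAUR at 0.87, and MMP14 with TIMP1 at 0.84 and with TIMP2 at 0.81. PLAU and TIMP2 gave the lowest value, r = -0.36. Of 5773 other genes that passed the F-test, the nearest to MMP3 were S100A14 (r = 0.955), the non-muscle myosin heavy chain MYH9 (0.945) and STEAP1 (0.943), and the nearest to TIMP1 were STEAP1 (0.951), S100A14 (0.938) and SVIL (0.930). The same pair of genes stood near both, and since MMP3 and TIMP1 were themselves correlated at r = 0.91, this is no separate result. For MMP10 the nearest were ISG20 (0.942), AKAP12 (0.929) and MMP12 (0.914), and for MMP14 they were CAPN2 (0.965), PARP12 (0.958) and the focal adhesion protein VCL (0.956). For PLAUR they were INPP1 (0.962), IL1RL1 (0.939) and CCRL2 (0.934), for TIMP2 MYO19 (0.920), PSTPIP2 (0.916) and the receptor kinase AXL (0.914), and for MMP1 the receptor EGFR (0.888), WDR45 (0.858) and the collagen-binding integrin ITGA2 (0.839). Nothing came as near to MMP7 (IL1R2, 0.789), TIMP3 (LYN, 0.688) or PLAU (ZMYM3, 0.608).

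MMP12, macrophage elastase, is the next gene after MMP3 in the chromosome 11 group, where the order in RefSeq is MMP7, MMP20, MMP27, MMP8, MMP10, MMP1, MMP3, MMP12 and MMP13. It read 230, 193 and 116 at 1 h, 599, 685 and 598 at 4 h and 23.5, 48.8 and 81.9 at 48 h, against 54.1, 53.6 and 8.12 at 0 h. At 4 h all arrays lay above the 0 h arrays (log2 change 3.65 ± 0.37, SE, adjusted p = 2.1e-09), and at 48 h the groups overlapped (0.35, adjusted p = 0.51). MMP10, MMP3 and MMP12 were each called higher at 1 h and 4 h and not at 48 h, though the 1 h calls of MMP12 and MMP10 were lost when only the compared groups were fitted. MMP1, which lies among them, and MMP7, at the end of the group, were not called against 0 h. MMP20, MMP27, MMP8 and MMP13 did not pass the filter. Of the 9 further metalloproteases and TIMPs that were tested (19 listed), MMP12 and MMP19 were called higher at 4 h and 0 were lower, against 7.55% of all genes higher and 7.05% lower. MMP19 stayed up, with 96.3, 154 and 129 at 48 h, against 11.5, 6.78 and 9.65 at 0 h (2.38, adjusted p = 7.5e-07). At 48 h MMP24 was also called higher and MMP16 lower, where 9.83% of genes were higher and 11.6% lower, and the MMP24 call was lost without 0 h replicate 1. The median log2 change of the 9 genes was -0.17 at 4 h, against -0.16 for all genes, while that of the 10 members was 0.80.

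In the plasminogen system, which PLAU and PLAUR serve, the genes of several plasma proteins were lower at the later times. Of 10 tested genes of 14 listed, 2 were higher and 5 lower at 12 h (8.74% and 10.5% of all genes) and at 48 h (9.83% and 11.6%). PLG, plasminogen, had a mean of 74.8 ± 39.1 at 48 h, against 949 ± 191 at 0 h (SD, n = 3), which is -3.45 ± 0.26 on the log2 scale (SE, adjusted p = 8.2e-13). SERPINF2, the plasmin inhibitor, fell by 2.78 on the log2 scale at 48 h (adjusted p = 3.7e-11), A2M, a broad protease trap, fell by 2.56, and CPB2, a carboxypeptidase that slows fibrin breakdown, fell by 2.41. LRP1, the clearance receptor, was the other gene called lower, and its calls at 4 h, 8 h and 16 h were each lost under several alternatives. The higher genes were SERPINE2, an inhibitor of thrombin and urokinase, with 1479 ± 404 at 12 h, against 281 ± 62.8 at 0 h (2.31 ± 0.19, adjusted p = 9.1e-12), and S100A10, which binds plasminogen at the surface (1.59 at 8 h). PLG, SERPINF2 and A2M are made by hepatocytes, and the summed hepatocyte markers were lower at 48 h than at 0 h, as given above. Their part in these falls was not tested.

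**Figure D4:**
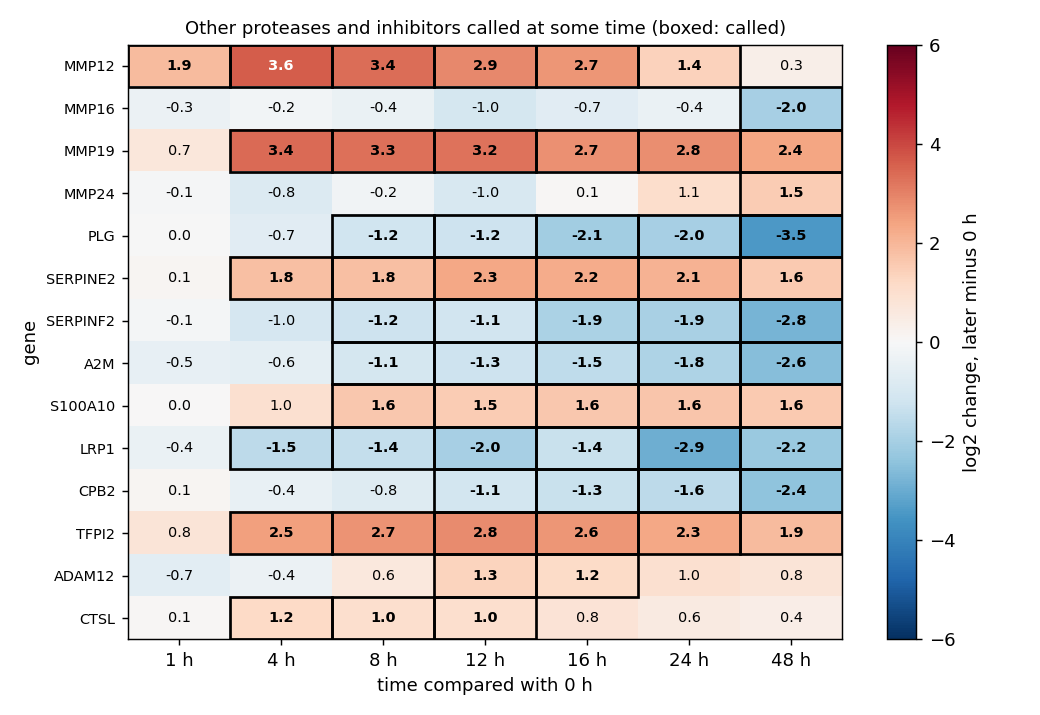
Log2 change from 0 h (colour and printed value) of 14 other proteases, inhibitors and plasminogen-system genes called at some time, in rows, at the 7 later times, in columns, with calls boxed. MMP12 resembles MMP3 and MMP10 in its return by 48 h, MMP19, SERPINE2 and TFPI2 stay higher, and PLG, SERPINF2, A2M and CPB2 deepen to 48 h.

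Of 22 tested other extracellular protease regulators (25 listed), 3 were higher and 0 lower at 12 h, where 8.74% and 10.5% of all genes were. They were TFPI2, an inhibitor of serine proteases including plasmin, the protease CTSL, and ADAM12. Without 0 h replicate 2, CTSL at 0.88 was under 2-fold. TFPI2 averaged 3639 ± 442 at 12 h, against 499 ± 40.6 at 0 h (SD, n = 3), which is 2.82 ± 0.15 on the log2 scale (SE, adjusted p = 4.7e-16). Among 8 surface partners of PLAUR, all tested, 4 were higher and 0 lower at 8 h (8.43% and 10.2% of all genes) and 5 and 0 at 12 h (8.74% and 10.5%). These were the receptor EGFR (1.77 ± 0.22 at 8 h, adjusted p = 9.6e-08) and the integrins ITGA5 (1.74 ± 0.21, adjusted p = 5.4e-08), ITGB3 (1.55 ± 0.45) and ITGAV (1.46 ± 0.18), with ITGA3 at 12 h (1.15 ± 0.32). ITGB3 at 8 h was not called without 0 h replicate 1 (1.04), nor ITGA3 at 12 h without 0 h replicate 3 (0.81), and ITGA3 had been called lower at 1 h (-1.73 ± 0.32, adjusted p = 0.00041). At 48 h ITGA3 alone was called, higher, where 9.83% of all genes were higher and 11.6% lower. Without 0 h replicate 3 that count was 0.

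Among 20 tested substrates of these proteases (22 listed), 7 were higher and 1 lower at 4 h, where 7.55% and 7.05% of all genes were. Tenascin, TNC, a matrix protein of wounds, averaged 4562 ± 983 at 4 h, against 182 ± 88.8 at 0 h (SD, n = 3), which is 4.59 ± 0.28 on the log2 scale (SE, adjusted p = 2.3e-14). The hyaluronan receptor CD44 (2.58 ± 0.16), the laminin chain LAMB3 (2.65 ± 0.28), the shed growth factor HBEGF (2.69 ± 0.41) and the basement membrane collagen COL4A1 (1.56 ± 0.16) were also higher at 4 h. The call of the 1 lower gene at 4 h, COL1A2, was lost under 10 of 33 alternatives, among them without any single 4 h array, 0 h replicate 1 or 0 h replicate 3 (changes of -1.52 to -1.13). At 48 h 5 were higher and 3 lower (9.83% and 11.6% of all genes), the lower ones being CDH1, the epithelial cadherin, FN1 and COL7A1, of which CDH1 at -0.84 was under 2-fold without 48 h replicate 1.

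AP-1 factors are known to bind TGAGTCA, which the MMP7 and PLAUR windows hold, while the MMP10 window matches only the looser TGANTCA. ETS factors are known to act with AP-1 factors at protease genes. Several AP-1 and ETS genes were called at 1 h, when MMP3, MMP10 and TIMP2 were the members called. Of 13 tested (15 listed), 6 were higher and 0 lower at 1 h, where 2.17% and 0.532% of all genes were. FOSB (3.56 ± 0.45, SE), ATF3 (3.47 ± 0.26), ETS2 (3.08 ± 0.22) and FOSL1 (2.31 ± 0.32, adjusted p = 3.7e-06) had the widest changes among them. At 4 h 5 were higher and 2 lower (7.55% and 7.05% of all genes). The 2 lower were FOS (-4.02 ± 0.44, adjusted p = 8.8e-09) and JUN (-1.05 ± 0.25, adjusted p = 0.0013). Without 0 h replicate 1, JUN at -0.73 was under 2-fold. FOSL1 at 4 h read 870, 906 and 776, against 133, 14.2 and 76.1 at 0 h, with no overlap (3.49 ± 0.32, adjusted p = 2.3e-10). At 8 h 4 were higher and 4 lower (8.43% and 10.2% of all genes). FOSB, the widest riser at 1 h, was among the lower at 8 h (-1.98 ± 0.45, adjusted p = 0.00077). ATF3 was not called at 8 h (0.23 ± 0.26, adjusted p = 0.55). FOSL1 was the 1 factor still called higher at 48 h (1.51 ± 0.32, adjusted p = 0.00031), which was 0.87 and not called without 0 h replicate 2. At that time 4 were lower, where 9.83% of all genes were higher and 11.6% lower. Among them were FOS, by a log2 change of -7.27 ± 0.44, FOSB, by -3.68 ± 0.45, and JUN, by -3.52 ± 0.25. FOS was high at 0 h already, with a mean of 6616 ± 2604 (SD, n = 3). Whether any of these factors bears on a protease gene was not tested.

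Markers of cell types other than hepatocytes were read beside these results, since several of the 10 genes are known in stromal and inflammatory cells. Fibroblast and stellate markers (9 on the array, 8 tested) summed to 1861 to 2414 at 8 h and 1678 to 2448 at 48 h, against 955 to 1263 at 0 h. DCN carried most of this, with a mean of 1282 ± 203 at 8 h, against 380 ± 52.5 at 0 h (SD, n = 3), and LUM some (318 ± 10.5, against 111 ± 56.5). COL1A1 averaged 84.8 ± 52.0 at 8 h, against 163 ± 36.7 at 0 h, COL1A2 62.6 ± 44.1, against 70.8 ± 37.8, and COL3A1 71.8 ± 22.6, against 51.4 ± 48.0. Macrophage and leukocyte markers (6 on the array, 3 tested, with PTPRC, MARCO and CSF1R among those not tested) summed to 504 to 987 at 8 h and 294 to 384 at 48 h, against 563 to 806 at 0 h, so they were lowest late. The bile duct list (5 on the array, 3 tested, EPCAM and CFTR not tested) was at 8 h and 48 h nearly all KRT19, a keratin. KRT19 averaged 19467 ± 1049 at 8 h and 16145 ± 2199 at 48 h, against 3357 ± 221 at 0 h (SD, n = 3). SOX9 was highest at 1 h (2619 ± 368), and averaged 1015 ± 183 at 8 h and 379 ± 43.3 at 48 h, against 517 ± 111 at 0 h. The dimmer KRT7 averaged 167 ± 88.5 at 8 h and 108 ± 24.0 at 48 h, against 36.7 ± 27.9 at 0 h. Their part in the courses of the 10 genes was not tested.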

How the data were processed

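RNA of 24 HepaRG samples, 3 at each of 8 times, was measured on a 1-colour Affymetrix array. The authors deposited linear intensity values from MAS5, 1 for each probe set and array, per the submitters' processing notes. For MAS5 no version or scaling target is given here. The mean signal without the extreme 2% of probe sets was 500.2 to 500.3 on every array. Intensity is not depth, and the number of arrays limits the precision.

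Of 22283 probe sets, 68 controls were left out. Symbols came from the platform annotation (1 symbol for 19065, several for 1043, none for 2107), and genes were named only from probe sets with 1 symbol. Tests used log2(signal + 18), 18 being the signals' 20th percentile, with no further normalization. limma 3.58.1 in R 4.3.3 (lmFit, eBayes with trend, 16 residual degrees of freedom) was fitted to all 24 arrays and tested on simulated data. P-values are two-sided, adjusted by Benjamini-Hochberg over 17122 tested probe sets. Lists were counted by 1 probe set a gene (9966 genes) in the same fit.

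All 10 members were named, from each list up to 6 called genes with the widest change, and the 3 genes most correlated with each member. MMP12 signals and list genes outside that rule were picked after their values were seen. Members and lists were chosen with earlier results of these data known, so their counts are no independent evidence. Promoters and gene order are from RefSeq tables (GRCh38.p14). Alternatives were other pseudocounts, normalizations and filters, 1 probe set a gene, 2-group fits, a replicate block, no fold threshold and each array left out. Figures used matplotlib 3.10.9 in Python 3.11.15.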

Additional observations from a re-analysis of the deposited data

How the results depend on the processing

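Of the 57 calls in the 10 genes, 40 held under every alternative run (29 to 34 each), 17 were lost under at least 1, and none reversed. With the larger pseudocount (73.8) 1 probe set was called at 1 h (3 in the main analysis), 3 at 48 h (5) and 1 from 4 h to 8 h (2). Median centring, and separately no fold threshold, each called 8 at 24 h (5). Without the filter 1 was called from 4 h to 8 h. With 1 probe set a gene, which removes the further PLAUR, MMP14 and TIMP3 probe sets, the counts were 5 at 8 h and at 12 h (main 9 and 8), 3 at 24 h (main 5), 2 at 48 h (main 5) and 0 from 4 h to 8 h. With only the compared groups fitted, 1 was called at 1 h and 0 from 4 h to 8 h. Leaving out single arrays gave 2 to 5 calls for 1 h against 0 h, 5 to 7 for 4 h, 8 to 9 for 8 h, 7 to 8 for 12 h, 6 to 8 for 16 h, 5 to 8 for 24 h and 3 to 5 for 48 h. The steps gave 8 to 9 from 1 h to 4 h, 0 to 2 from 4 h to 8 h, 0 from 8 h to 16 h, 0 to 1 from 16 h to 24 h, 2 from 24 h to 48 h, and the F-test 10 to 12. The arrays that moved a count by over 1.5 times were 0 h replicate 1 (5 at 1 h), 0 h replicate 2 (3 at 48 h), 0 h replicate 3 and 24 h replicate 3 (8 each at 24 h; the second also 0 from 16 h to 24 h), and every 4 h and 8 h array from 4 h to 8 h. Except where the alternative's construction shows it, the cause was not tested. The labels' replicate numbers did not pair the samples (correlations of same-numbered deviations -0.05 to 0.07), and with the replicate block 57 of 57 calls were kept and 0 added. Signal near the filter limits MMP1, PLAU and TIMP3, where replicates differed several-fold. A list's small counts moved too, as with plasminogen genes at 4 h (1 to 8 called, 2 in the main analysis).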
